A study of Arabidopsis thaliana with 18 samples.

Results

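The 32 genes described here are nuclear genes of Arabidopsis that encode subunits of the photosynthetic machinery of the thylakoid membrane. They comprise 11 photosystem II genes, 12 photosystem I genes, 6 genes of soluble or membrane electron carriers and 3 genes of the chloroplast ATP synthase, and antenna genes are not among them. Each was taken from the value table by its locus number, and all 32 were present among 27827 rows. The rule reads locus numbers and no measured value, although the list was drawn up with earlier results of these data known, and 31 of the 32 symbols matched a symbol or synonym of the RefSeq gene table for that locus. The exception was ATPG, which RefSeq names PDE334.

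All plants were Columbia-0 (Col-0), a laboratory wild type, and the labels name no mutation or transgene for any group. The study measured freshly harvested dry seeds and, as the second stage, seedlings at 72 h of imbibition. RNA was taken as total RNA, as monosomal RNA, which travels with single ribosomes, and as polysomal RNA, which carries several ribosomes and is commonly taken as the RNA under translation. Each of the 6 groups held 3 biological replicates on 1 array each, 18 arrays in all, with the material of 8 plants pooled per replicate. The sources used here did not give the growth light or the organs of the seedlings. The array signals had been summarised on the log2 scale by RMA, robust multi-array averaging, and on this scale a step of 1 is a doubling of signal. Scaling between arrays was part of this, and a value therefore gives the abundance of a transcript relative to the others in its fraction, not the amount of RNA in the fraction. Seeds and seedlings are mixtures of cells, and fewer cells of a type cannot be told apart from less RNA per cell. Different probes bind with different strength, so no gene's level is set against that of another gene.

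Photosystem II takes electrons from water, at a manganese cluster held in place by the PSBO, PSBP and PSBQ proteins on the lumen side of the membrane. The electrons pass through the cytochrome b6f complex to plastocyanin, then through photosystem I to ferredoxin and, by ferredoxin-NADP reductase, to NADPH, while the protons set free drive the ATP synthase. The reaction centre proteins are encoded in the chloroplast, and most of the peripheral subunits in the nucleus. The Arabidopsis embryo is green during its development and loses its chlorophyll as the seed dries, and photosynthetic membranes are built again after germination.

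The stage labels were checked against marker genes. The median of 14 seed markers (storage protein, oleosin, late embryogenesis and related genes) lay between 10.96 and 11.41 on the dry seed arrays, where the median of the 32 genes lay between 2.53 and 3.55. On 8 of the 9 seedling arrays the seed marker median lay between 3.19 and 3.90, but on the third polysomal array it was 6.65, and on the first monosomal array some seed markers, the storage protein gene CRA1 among them (7.75), were also high. The median of the 32 genes did not stand apart on that polysomal array: it was 10.01 against 10.04 and 9.85 on the other two. On that monosomal array the median of the 32 genes was 10.11, against 9.95 and 9.85 on the other two. There 20 of the 32 genes had their highest seedling monosomal value. The first polysomal and first total RNA arrays of seedlings likewise held the highest value of 17 and 16 of the 32 genes in their groups. Their seed marker medians were 3.30 and 3.44. Shares of all rows were not counted for these numbers. All 6 markers of green tissue and 5 of 6 root markers were called higher in seedling total RNA, so the seedlings held both shoot and root transcripts. Replicate arrays correlated across rows with r between 0.957 and 0.990. The number of arrays limits the precision.

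**Figure D1:**
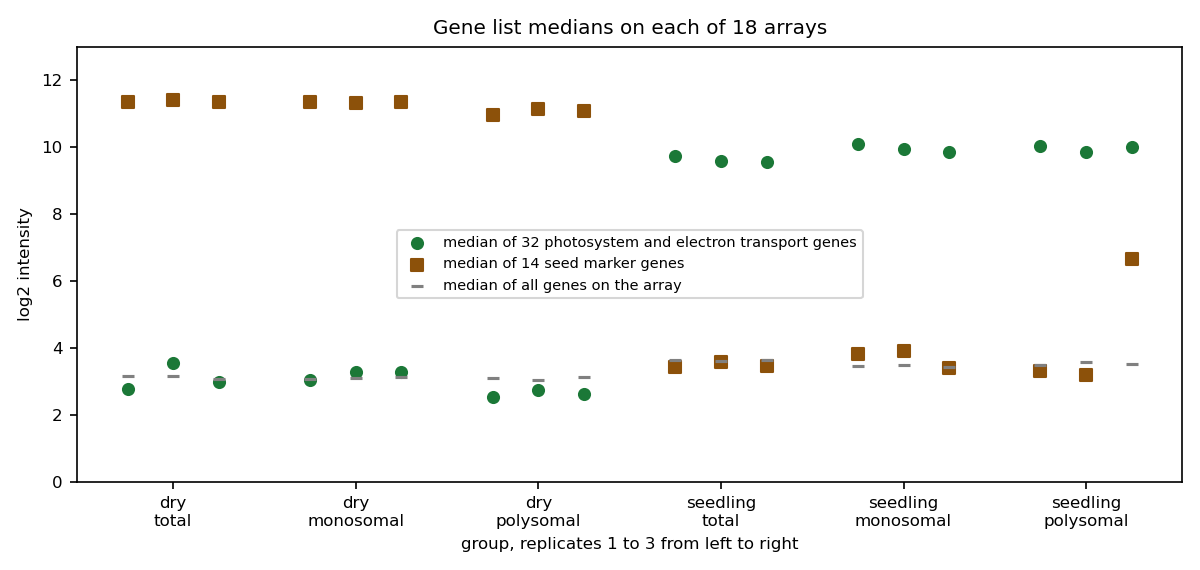
Median log2 intensity of the 32 photosystem and electron transport genes (circles), of 14 seed marker genes (squares) and of all genes (dashes) on each of the 18 arrays, grouped by stage and RNA fraction. The 32 genes lie between 2.53 and 3.55 on dry seed arrays and between 9.55 and 10.11 on seedling arrays, and the seed markers stand at 6.65 on the third seedling polysomal array.

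The 32 genes were higher in seedlings than in dry seed without exception, in every fraction. For each gene the lowest of its 9 seedling values lay above the highest of its 9 dry seed values, as in 16.4% of all rows. The median difference, seedling minus dry seed, was 6.57 in total RNA, 6.26 in monosomal RNA and 6.81 in polysomal RNA on the log2 scale, where the median over all rows was -0.17, 0.03 and -0.03. A gene was called when its p from limma's moderated test, adjusted over all rows by Benjamini and Hochberg, was under 0.05. All 32 genes were called higher in total RNA, where 28.8% of all rows were, in monosomal RNA, where 26.8% were, and in polysomal RNA, where 26.7% were. Leaving out any single array left each of these counts at 32. Among the 1% of rows with the largest increase stood 24 of the 32 genes in total RNA, 22 in monosomal RNA and 27 in polysomal RNA.

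Dry seed values of most of these genes lay near the array medians, which were between 3.05 and 3.65 over all 18 arrays. Background was not measured, and the table held no detection calls. Statements below that a size depends on the background rest on taking values in or below this range as near background. Differences that start from such values may be compressed. Replicates also spread more there: the median SD of the 32 genes was 0.28 over the dry seed groups and 0.12 over the seedling groups (n = 3 each), and the widest was 1.03 for PSBX in dry seed total RNA, at 3.36, 3.58 and 1.69. On all 9 seedling arrays all 32 genes were above the array median.

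**Figure D2:**
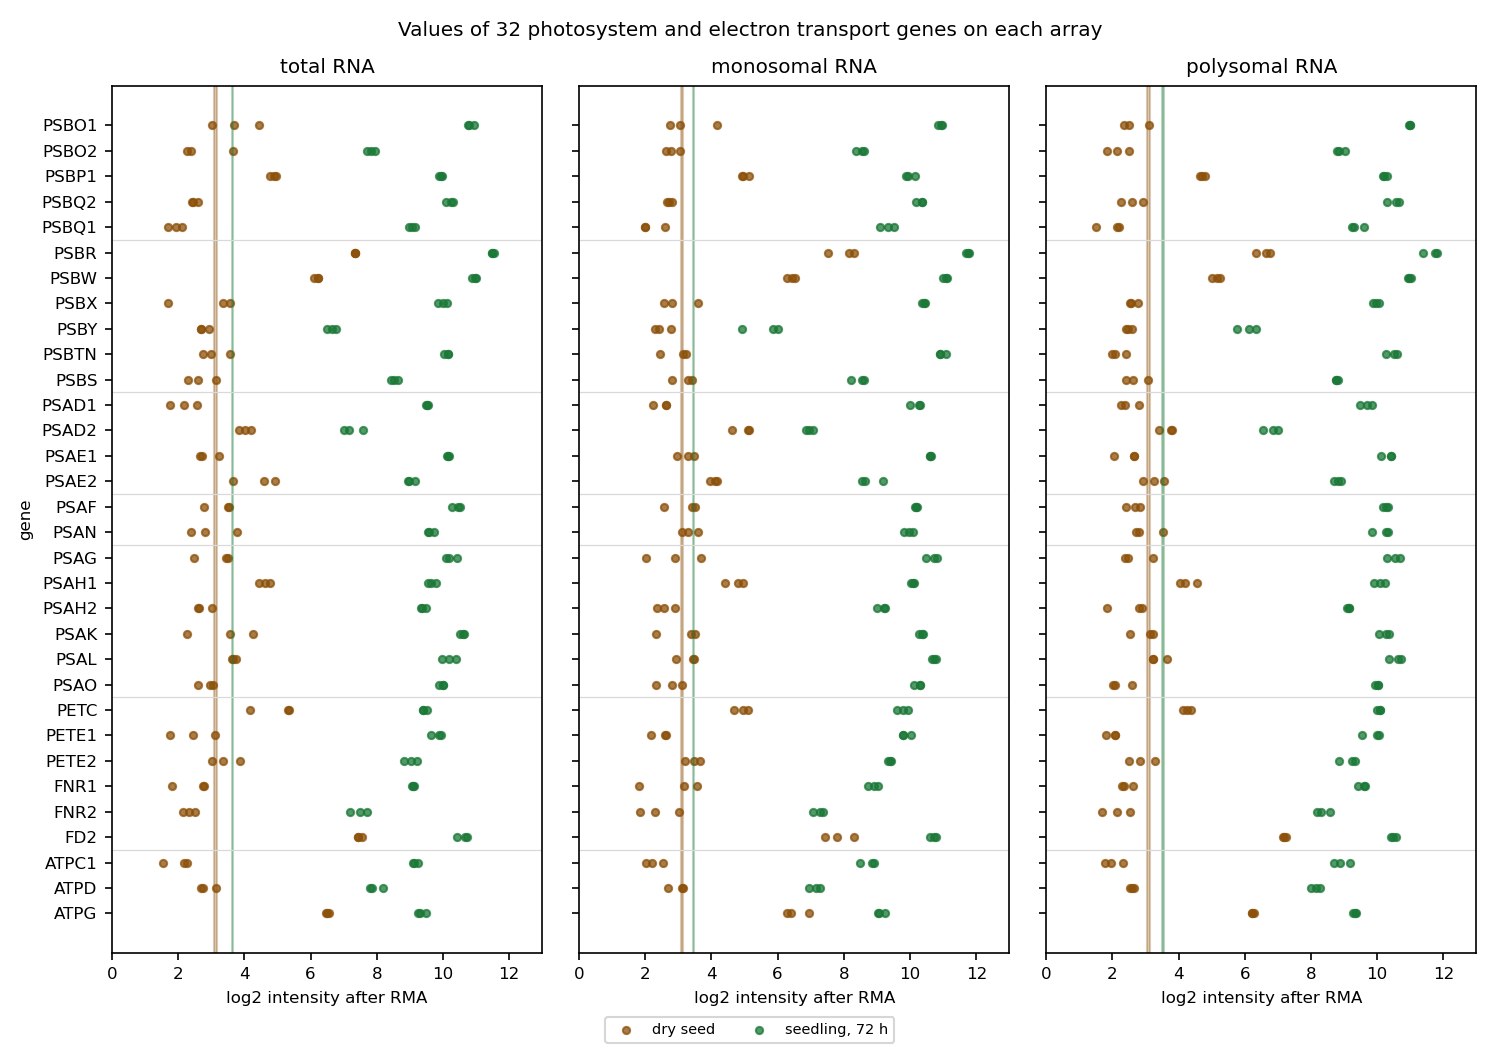
Log2 intensity of each of the 32 genes on every array, in total, monosomal and polysomal RNA, with dry seed in brown and seedlings in green. Bands mark the range of the array medians of each stage, and thin lines separate the functional groups; every green point of a gene lies right of all its brown points, and PSBR, PSBW, FD2 and ATPG stand well right of the band in dry seed.

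Among the genes of the oxygen-evolving side, the largest fitted difference was that of PSBQ2 (AT4G05180), one of the genes for the PsbQ protein. It stood at 2.40, 2.59 and 2.44 in dry seed total RNA and at 10.31, 10.23 and 10.10 in seedling total RNA. The stages did not overlap, and the fitted difference was 7.74 (SE 0.18, adjusted p = 5.66e-16). Its dry seed values lay below the array median on all 9 arrays, so the size of the difference depends on the background there and no fold is given. PSBQ1 (AT4G21280), which encodes the same protein, differed by 7.15. PSBO1 (AT5G66570), for the manganese-stabilising protein, went from 3.68, 4.46 and 3.02 to 10.77, 10.94 and 10.75 in total RNA, and in polysomal RNA from 2.51, 3.10 and 2.36 to 10.99, 10.97 and 10.99. Its 3 seedling polysomal values were almost equal, and its difference of 8.33 (SE 0.33, adjusted p = 5e-14) was the largest of the 32 in that fraction. PSBO2 (AT3G50820), the second gene for this protein, differed by 5.06 in total RNA and PSBP1 (AT1G06680), for PsbP, by 5.05.

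The photosystem II subunits of the membrane ranged from 3.87 to 7.12 in total RNA. PSBX (AT2G06520) and PSBTN (AT3G21055), for small subunits, were 7.12 and 7.0 higher in seedling total RNA, and PSBS (AT1G44575), for the protein that senses excess light and triggers its dissipation as heat, was 5.85 higher. PSBW (AT2G30570), for a small subunit that stabilises supercomplexes, and PSBR (AT1G79040), for a protein close to the oxygen-evolving complex, were 4.76 and 4.18 higher. PSBR was above the array median on every dry seed array: its total RNA values were 7.34, 7.33 and 7.33, against 11.48, 11.55 and 11.50 in seedlings. PSBY (AT1G67740), for another small subunit, showed the smallest change of this group, from 2.93, 2.69 and 2.70 to 6.66, 6.77 and 6.50 (3.87, SE 0.24, adjusted p = 3.94e-11). In monosomal RNA its difference was 3.09 and in polysomal RNA 3.58, again among the 4 smallest of the 32.

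For photosystem I, subunits that face the stroma were both among the largest and the smallest changes. PSAD and PSAE form the docking surface for ferredoxin. PSAD1 (AT4G02770) went from 2.19, 2.57 and 1.75 in dry seed total RNA to 9.54, 9.49 and 9.52 in seedlings, a difference of 7.35 (SE 0.21, adjusted p = 2.62e-15). PSAD2 (AT1G03130) stood at 4.21, 3.83 and 4.03 in dry seed and at 7.57, 7.01 and 7.15 in seedlings. Its groups did not overlap either, but the difference was 3.22 (SE 0.21, adjusted p = 5.31e-11). PSAE1 (AT4G28750) was 7.29 and PSAE2 (AT2G20260) 4.63 higher. The lumen-side subunits PSAF (AT1G31330) and PSAN (AT5G64040), of which PSAF is the docking site of plastocyanin, were 7.14 and 6.62 higher. Of the membrane subunits, PSAK (AT1G30380) and PSAG (AT1G55670), at the periphery towards the antenna, were 7.22 and 7.09 higher. PSAO (AT1G08380), PSAL (AT4G12800), PSAH2 (AT1G52230) and PSAH1 (AT3G16140), on the side where mobile antenna binds, were 7.10, 6.51, 6.64 and 5.06 higher. In monosomal RNA the smallest difference of all 32 was that of PSAD2, 1.99 (SE 0.21, adjusted p = 6.16e-08), and PSAG was among the largest with 7.80.

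Electron carriers ranged from 3.12 to 7.38. PETE1 (AT1G76100) and PETE2 (AT1G20340) encode plastocyanin, the copper protein that feeds photosystem I, and were 7.38 and 5.60 higher in seedling total RNA. FNR1 (AT5G66190) and FNR2 (AT1G20020), for the leaf ferredoxin-NADP reductases, were 6.66 and 5.12 higher. PETC (AT4G03280), for the Rieske iron-sulphur protein of cytochrome b6f, was 4.48 higher. FD2 (AT1G60950), for the main leaf ferredoxin, stood at 7.44, 7.56 and 7.44 in dry seed and at 10.71, 10.66 and 10.42 in seedlings, so that its difference was 3.12 (SE 0.19, adjusted p = 3.63e-11).

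The 3 ATP synthase genes covered almost the whole range. ATPC1 (AT4G04640), for the gamma subunit, was 7.14 higher in seedling total RNA, ATPD (AT4G09650), for the delta subunit, 5.09 and ATPG (AT4G32260), for a stalk subunit, 2.83. ATPG had the smallest change of all 32 genes in total RNA (SE 0.18, adjusted p = 4.38e-11), a 7.14-fold difference. Its dry seed values were 6.51, 6.57 and 6.48 and its seedling values 9.32, 9.48 and 9.26. In polysomal RNA it was also the smallest, at 3.09 (SE 0.18, adjusted p = 1.21e-11).

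The genes with the 5 largest fitted differences were not the same in each fraction, and this change of order was not tested. In total RNA PSBQ2, PETE1, PSAD1, PSAE1 and PSAK had the 5 largest differences. In monosomal RNA they were PSBTN (8.02, SE 0.23), PSAG (7.80, SE 0.34), PSAD1 (7.69, SE 0.21), PSBO1 (7.60, SE 0.33) and PSBQ2 (7.57, SE 0.18), and in polysomal RNA PSBO1 (8.33, SE 0.33), PSBTN (8.30, SE 0.23), PSBQ2 (7.92, SE 0.18), PETE1 (7.87, SE 0.26) and PSAE1 (7.85, SE 0.21). Differences between neighbours in these orders were not tested. None of these genes was above the array median on every dry seed array, so their sizes and their order depend on the background there. The 4 smallest were the same genes in each fraction, ATPG, FD2, PSAD2 and PSBY, at 2.58, 2.87, 1.99 and 3.09 in monosomal RNA and at 3.09, 3.29, 3.14 and 3.58 in polysomal RNA.

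The array median served as a mark for each gene's own dry seed values, without an order between genes. On all 9 dry seed arrays 8 genes were above the array median, namely PSBP1, PSBR, PSBW, PSAD2, PSAH1, PETC, FD2 and ATPG. Another 8 genes (PSBQ2, PSBQ1, PSBY, PSAD1, PSAH2, PETE1, FNR2 and ATPC1) were above the median on none of the 9, and 16 were above it on some. The median stage difference in total RNA was 4.33 for the 8 genes above the median throughout and 7.05 for the other 24. The dry seed value both divided the genes and enters the difference, so the order of these medians follows from the division and is no result.

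In 7 cases both genes for one protein were present, and their stage differences are set side by side here. For PSAD they were 7.35 for PSAD1 and 3.22 for PSAD2 in total RNA, and 7.69 and 1.99 in monosomal RNA. In total RNA they were 7.29 and 4.63 for PSAE1 and PSAE2, 7.10 and 5.06 for PSBO1 and PSBO2, and 7.38 and 5.60 for PETE1 and PETE2. PSAH1 and PSAH2 had 5.06 and 6.64, FNR1 and FNR2 had 6.66 and 5.12, and PSBQ2 and PSBQ1 had 7.74 and 7.15. In every pair at least one gene was below the array median on some dry seed array, so these sizes depend on the background and the gaps are not ranked. The difference between genes of a pair was not tested, and the sources used here did not say how probes separate such similar sequences.

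**Figure D3:**
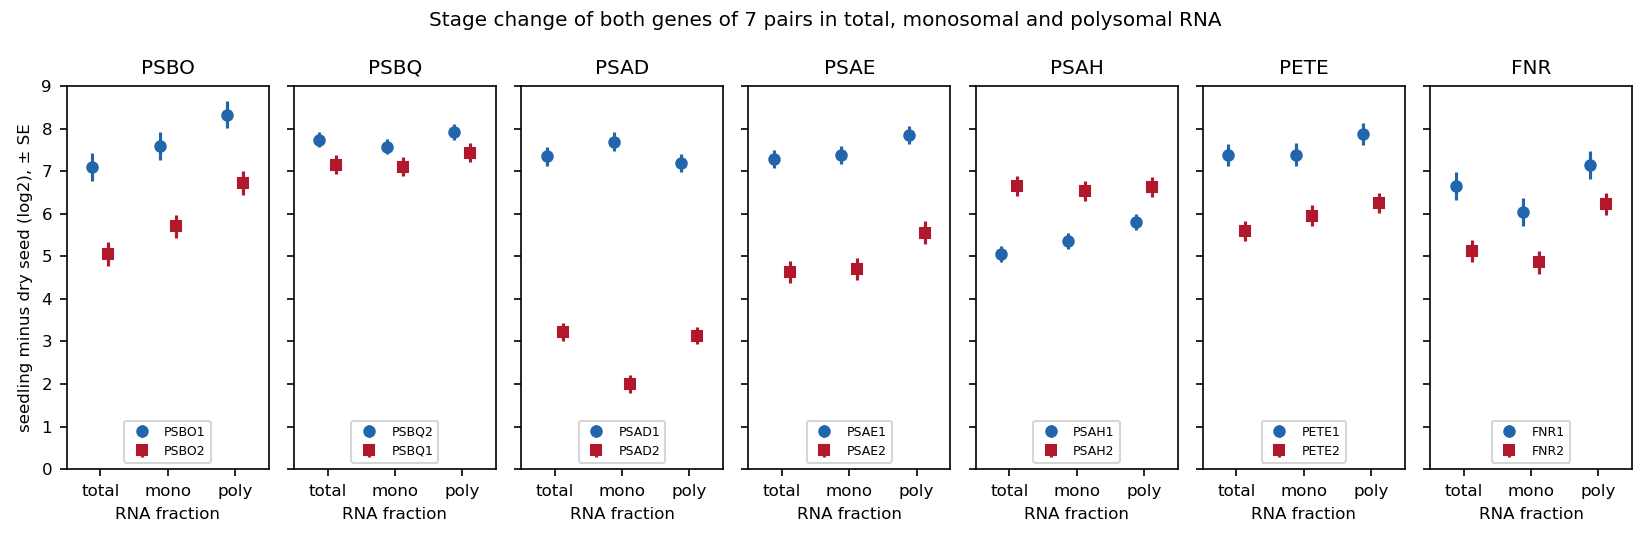
Seedling minus dry seed difference (log2) in total, monosomal and polysomal RNA for both genes of 7 pairs, with standard errors from the fit (3 arrays a group). PSAD1 and PSAD2 lie at 7.35 and 3.22 in total RNA, and PSBQ2 and PSBQ1 at 7.74 and 7.15.

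Within the dry seed the relative abundance of each transcript was compared between fractions, which does not give how much of its RNA sat on ribosomes. Monosomal RNA differed little from total RNA, with a median difference of 0.08 over the 32 genes and -0.02 over all rows. PSAD2 was the 1 gene called higher, beside 3.46% of all rows. Its monosomal values were 5.11, 5.13 and 4.63, all above its total RNA values of 4.21, 3.83 and 4.03, a difference of 0.94 (SE 0.21, adjusted p = 0.00916). It kept its call when any single array was left out, but not in a fit of these 2 groups alone (adjusted p = 0.0659). None was called lower by limma, beside 2.74% of all rows, and at an unadjusted p under 0.05 the counts were 3 higher and 0 lower. Shares of all rows were not counted at the unadjusted threshold, here or below. The shares given are for adjusted p and are no measure for such counts.

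In dry seed polysomal RNA 4 genes fell against total RNA, beside 1.5% of all rows, and none rose, beside 3.15%. At an unadjusted p under 0.05 limma gave 10 lower and 0 higher, with no share of all rows counted at that threshold. PSBW stood at 5.02, 5.15 and 5.24 on polysomes and at 6.12, 6.23 and 6.22 in total RNA, a clear gap of -1.05 (SE 0.15, adjusted p = 0.00146) that was called without any single array. The other three were PSAE2 at -1.14 (SE 0.26, adjusted p = 0.0205), PSBTN at -0.94 (SE 0.23, adjusted p = 0.0263) and PSBR at -0.76 (SE 0.20, adjusted p = 0.0386). PSBR lost its call when any 1 of the 6 arrays was left out (adjusted p 0.0638 to 0.169) and PSBTN in 5 of 6 such fits, all but the one without the first total RNA array (0.0255 to 0.0935). PSAE2 lost it without replicate 1 or replicate 3 of either group (0.00422 to 0.1). Neither PSAE2 nor PSBTN was above the array median on every dry seed array, so their sizes depend on the background. PSBTN stood at 2.40, 1.99 and 2.09 on polysomes and at 2.74, 3.01 and 3.57 in total RNA. In a fit of these groups alone PSAE2 and PSBTN were not called (0.0832 and 0.0642), nor was PSBR after loess scaling (0.0866). The median over the 32 genes was -0.33 and over all rows -0.08. After loess scaling these were -0.55 and -0.05, and with arrays centred on their 75th percentile -0.54 and -0.30. In dry seed total RNA the second array held the highest value of 21 of the 32 genes, and without it the median was -0.26. The share of all rows highest on that array was not counted.

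Polysomal RNA of dry seed was then set against monosomal RNA. Of the 32 genes 31 had a lower mean on polysomes than on monosomes, with a median difference of -0.45, where 59.4% of all rows were lower and their median was -0.12. The call was reached by 7 genes, all lower, beside 7.49% of all rows called lower, and by none higher, beside 11.5%. At an unadjusted p under 0.05 limma gave 14 lower and 0 higher, with no share of all rows counted at that threshold. The values of 13 genes did not overlap and were lower on polysomes, beside 21.1% of all rows.

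The largest of these differences was in PSBR, whose polysomal values of 6.33, 6.63 and 6.76 lay below its monosomal values of 7.52, 8.14 and 8.30 (-1.41, SE 0.20, adjusted p = 8.7e-05). PSAD2 had 3.76, 3.41 and 3.81 on polysomes and 5.11, 5.13 and 4.63 on monosomes (-1.30, SE 0.21, adjusted p = 0.000236). PSBW had 5.02, 5.15 and 5.24 against 6.27, 6.44 and 6.53 (-1.28, SE 0.15, adjusted p = 1.96e-05). In these 3 genes, all above the array median on every dry seed array, the call held without any single array. The other calls were PSAE2 (-0.83, adjusted p = 0.0326), PSBTN (-0.78, adjusted p = 0.0207), PSAE1 (-0.78, adjusted p = 0.0124) and FD2 (-0.65, adjusted p = 0.0244). Except for FD2, these genes were not above the array median on every dry seed array, so their sizes depend on the background. Each of these calls was lost in some fits that left out 1 array. PSAE1 lost it without the second monosomal or the first polysomal array, FD2 without the second monosomal or any polysomal array, PSBTN without monosomal replicate 1 or 2 or polysomal replicate 2 or 3, and PSAE2 in all such fits but that without the second polysomal array. The number of called genes without 1 array ranged from 3 to 8.

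Since dry seed values of most of the 32 genes lay near the array medians, the 8 that were above the array median throughout were looked at alone. All 8 had lower means on polysomes than on monosomes, 7 of them without overlap, with a median of -0.65. Of the 11594 rows that were likewise above the array median on all 9 dry seed arrays, 39.7% had a lower mean and 21.4% were lower without overlap, and their median was 0.17. These are counts over rows of one comparison, and no test was made of the group. The number of genes called lower depended on how arrays were scaled to each other. It went from 7 as deposited to 14 under loess scaling and 17 with arrays centred on their 75th percentile. Medians moved too, to -0.65 for the 32 genes and -0.07 for all rows under loess, and to -0.66 and -0.33 with the 75th percentile. Under each scaling 30 to 32 of the 32 genes were lower. The share of all rows called or lower under each scaling is not given here.

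**Figure D4:**
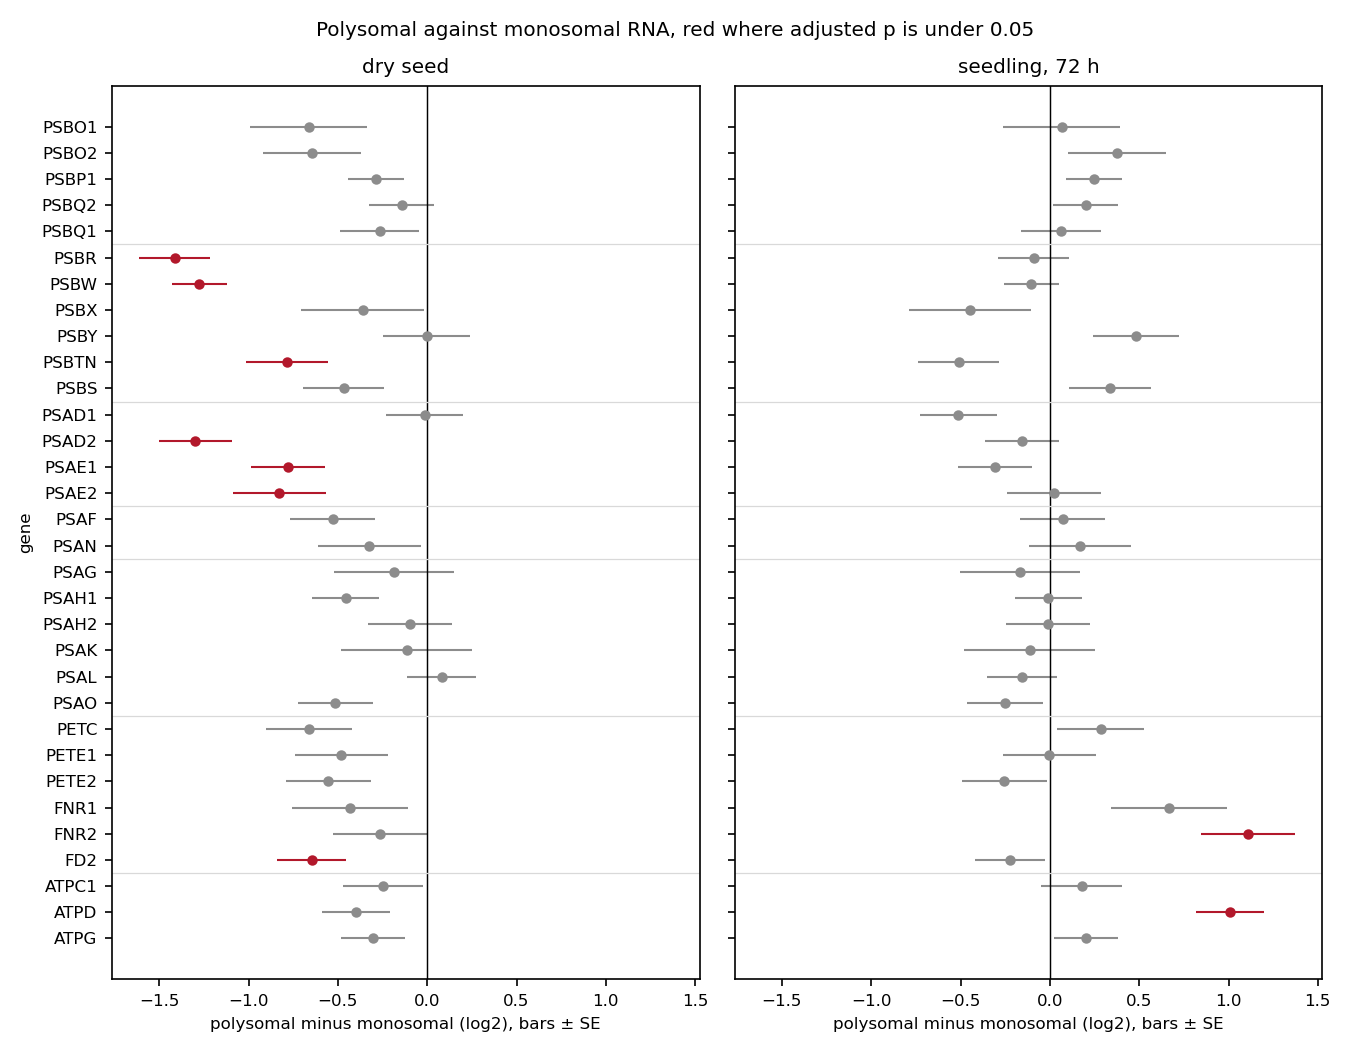
Polysomal minus monosomal difference (log2) of each of the 32 genes in dry seed and in seedlings, with standard errors from the fit of 3 arrays a group, and red for genes called at an adjusted p under 0.05. In dry seed 31 of the 32 points lie below 0 and 7 are called, and in seedlings 16 lie on either side and FNR2 and ATPD are called higher.

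In seedlings most of the 32 genes were not called between fractions. Monosomal against total RNA gave 3 genes higher, beside 17.2% of all rows, and 2 lower, beside 14.5%, with a median of 0.10 for the 32 genes and 0.11 for all rows. With arrays centred on their median these were 0.28 and 0.28, and on their 75th percentile 0.24 and 0.25. PSBTN was higher on monosomes, at 11.09, 10.91 and 10.89 against 10.14, 10.14 and 10.03 in total RNA (0.86, SE 0.23, adjusted p = 0.00808). PSBY was lower, at 6.0, 5.86 and 4.92 against 6.66, 6.77 and 6.50 (-1.05, SE 0.24, adjusted p = 0.00338). ATPD was lower as well, at 7.17, 6.94 and 7.27 against 8.18, 7.80 and 7.86 (-0.82, SE 0.19, adjusted p = 0.00343). None of these 3 genes overlapped between the fractions, and all kept their call without any single array. PSAD1 (0.67, adjusted p = 0.0233) and PSAL (0.54, adjusted p = 0.0419) were also higher, but each lost its call in 5 of 6 fits without 1 array. For PSAD1 the exception was the fit without the third monosomal array and for PSAL that without the second total RNA array. Without both seedling arrays high in seed markers their adjusted p were 0.066 and 0.0825, and 1 gene was called higher. With these groups alone that of PSAL was 0.0748.

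Against total RNA, seedling polysomes were higher in PSBO2 and FNR2. PSBO2 stood at 8.83, 8.80 and 9.03 on polysomes and at 7.94, 7.82 and 7.69 in total RNA (1.07, SE 0.28, adjusted p = 0.00966), with no overlap. FNR2 stood at 8.58, 8.19 and 8.29 against 7.19, 7.48 and 7.71 (0.90, SE 0.26, adjusted p = 0.021), and lost its call without the first polysomal, the first total or the second total RNA array (adjusted p up to 0.0933). These were 2 of 32 genes called higher, beside 9.86% of all rows, and 0 were called lower by limma, beside 10.7%. At an unadjusted p under 0.05 there were 4 higher and 2 lower, with no share of all rows counted at that threshold. The median was 0.16 over the 32 genes and 0.08 over all rows, 0.27 and 0.19 with arrays centred on their median, and 0.04 and 0.06 after loess scaling.

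Against monosomes, seedling polysomes were higher in the same FNR2 and in ATPD, beside 10.9% of all rows called higher. FNR2 on monosomes stood at 7.08, 7.36 and 7.29, about its level in total RNA, so that its polysomal values were 1.11 higher (SE 0.26, adjusted p = 0.00681). ATPD had 8.14, 8.01 and 8.26 on polysomes and 7.17, 6.94 and 7.27 on monosomes (1.01, SE 0.19, adjusted p = 0.00136). Both were called without any single array. None was called lower by limma, beside 8.17% of all rows. At an unadjusted p under 0.05 there were 2 on each side, with no share of all rows counted at that threshold. The median over the 32 genes was 0.01, with 16 above and 16 below 0, against -0.10 over all rows.

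The contrast between fractions was then compared between the stages, as the difference in seedlings minus the difference in dry seed. From monosomes to polysomes it was above 0 for 29 of the 32 genes, with a median of 0.48, where the median over all rows was -0.02. The share of all rows above 0 is not given here. This contrast contains the dry seed difference, which was below 0 in 31 of the 32 genes, so the count is not independent of that result. The change was called higher for 5 genes, beside 5.69% of all rows, and lower for 0, beside 4.8%. At an unadjusted p under 0.05 limma gave 11 higher and 0 lower, with no share of all rows counted at that threshold. PSBR (1.32, SE 0.28, adjusted p = 0.00607), PSBW (1.17, SE 0.22, adjusted p = 0.00243) and PSAD2 (1.14, SE 0.29, adjusted p = 0.0168) were lower on polysomes than on monosomes in dry seed and differed by -0.09, -0.10 and -0.16 in seedlings. ATPD (1.41, SE 0.27, adjusted p = 0.00287) and FNR2 (1.38, SE 0.37, adjusted p = 0.0235) were higher on polysomes in seedlings. In dry seed FNR2 was above the array median on no array and ATPD not on all, so their sizes depend on the background. PSAD2 lost its call without the second dry seed polysomal array (0.0532). FNR2 lost it without dry seed monosomal replicate 3, dry seed polysomal replicate 1 or seedling polysomal replicate 1 (up to 0.0716), and without both seedling arrays high in seed markers (0.0718).

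From total RNA to polysomes the difference was higher in seedlings for 4 genes, beside 4.04% of all rows, and lower for 0, beside 4.96%. Limma gave 11 higher and 0 lower at an unadjusted p under 0.05, with no share of all rows counted at that threshold. The 4 called genes were PSBO2 (1.67, SE 0.39, adjusted p = 0.0119), PETC (1.32, SE 0.34, adjusted p = 0.0209), PSBTN (1.30, SE 0.32, adjusted p = 0.0171) and PSBW (1.07, SE 0.22, adjusted p = 0.00493). In dry seed PSBO2 stood at 2.26, 3.65 and 2.37 in total RNA and at 1.85, 2.49 and 2.13 on polysomes. PSBTN stood at 2.40, 1.99 and 2.09 on dry seed polysomes. All of these but 3.65 lie below the array medians, so both sizes depend on the background. Without the second dry seed total RNA array PSBO2 moved by 1.22 and kept its call. The median of the 32 genes was 0.49 and of all rows 0.10. PETC, whose dry seed total RNA values were 5.32, 5.36 and 4.18, lost its call without the first or second of these arrays (up to 0.0555).

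From total RNA to monosomes 2 genes were called in each direction, beside 9.27% of all rows higher and 9.85% lower. PSAD2 moved by -1.23 (SE 0.29, adjusted p = 0.00726), being higher on monosomes than in total RNA in dry seed and at 7.06, 6.93 and 6.87 on monosomes against 7.57, 7.01 and 7.15 in seedlings. ATPD moved by -0.95 (SE 0.27, adjusted p = 0.0197). PSBTN (1.02, SE 0.32, adjusted p = 0.0331) and PSAL (0.92, SE 0.27, adjusted p = 0.0252) moved the other way. ATPD, PSBTN and PSAL were not above the array median on every dry seed array, so their sizes depend on the background there. ATPD lost its call without the first seedling total RNA array (0.054), after loess scaling (0.0552), with arrays centred on their 75th percentile (0.0525) and in a fit of these groups alone (0.05). PSAL lost its call without dry seed monosomal replicate 1, dry seed total replicate 2 or seedling total replicate 3 (up to 0.0655). PSBTN lost it without dry seed monosomal replicate 3, dry seed total replicate 3, seedling monosomal replicate 1 or any seedling total RNA array (up to 0.0884), with these groups alone (0.0648) and without both seedling arrays high in seed markers (0.0676). The 3 comparisons between stages share arrays, and so do those between fractions.

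Other nuclear genes of the pathway were counted in 3 lists with 28 genes. In total RNA 17 were called higher, beside 28.8% of all rows, 5 lower, beside 33.3%, and 6 were not called, and their median was 1.41 where that of the 32 genes was 6.57. Of 9 assembly factors 7 rose, the largest being PSB33 (3.16, SE 0.16), HCF136 (2.95, SE 0.21), which is needed to build photosystem II reaction centres, and PSB28 (1.83, SE 0.16). LPA1 (0.16) and the membrane insertase gene ALB3 (0.10, adjusted p = 0.653) were not called, and ALB3 was already at 7.21, 7.38 and 7.40 in dry seed total RNA.

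Relatives of the carrier and subunit genes divided. FD1, the second leaf ferredoxin gene, rose by 5.25 (SE 0.21, adjusted p = 7.91e-14), where FD2 rose by 3.12, and locus AT2G26500 by 4.22. FD3, for a ferredoxin of non-green tissue, went the other way, from 9.86, 9.83 and 9.96 to 9.29, 9.14 and 9.39, and fell by 0.61 (SE 0.17, adjusted p = 0.00369). ATPC2, the second gamma subunit gene, fell by 1.14, CYTC6A, for a cytochrome c6-like protein, by 0.69, and PSBP2, a PsbP relative, by 0.57. RFNR1 and RFNR2, for root-type ferredoxin-NADP reductases, were 0.49 and 0.43 higher and not called (adjusted p = 0.0638 and 0.0578). PSBP2 was at 2.06 to 2.46 in dry seed, below the array medians, and its values were taken as near background at both stages.

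Of 11 genes for cyclic electron flow, the NDH complex, thylakoid curvature and state transitions, 8 rose. NDHO (5.35, SE 0.18), NDHL (4.24, SE 0.23) of the NDH complex and CURT1A (5.0, SE 0.28), which bends the margins of grana, rose most. STN7, the kinase that phosphorylates antenna proteins in state transitions, fell by 1.07 (SE 0.23, adjusted p = 0.000515), from 6.41, 6.49 and 6.46 to 5.48, 5.20 and 5.47. STN8, its relative acting on photosystem II core proteins, and PGRL1B, of cyclic flow, were 0.40 and 0.46 higher and not called. In monosomal RNA 19 of the 28 genes were called higher, beside 26.8% of all rows, and 4 lower, beside 24.9%. In polysomal RNA 21 were called higher, beside 26.7%, and 4 lower, beside 26.8%.

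Of 18 chloroplast loci considered for comparison, 4 were rows of the table and the rest were not analysed here. They stood high at both stages. ATCG00580 rose by 2.44 (SE 0.18) in total RNA, ATCG00150 by 1.81 (SE 0.21) and ATCG00140 by 1.54 (SE 0.17), while ATCG00020 differed by 0.19 (adjusted p = 0.333), from 11.93, 11.96 and 11.89 to 12.27, 12.14 and 11.93. Except for ATCG00580, each of these rows held the same values as another row, so the locus they measure is uncertain. How fully the labelling covers chloroplast transcripts was not tested.

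**Figure D5:**
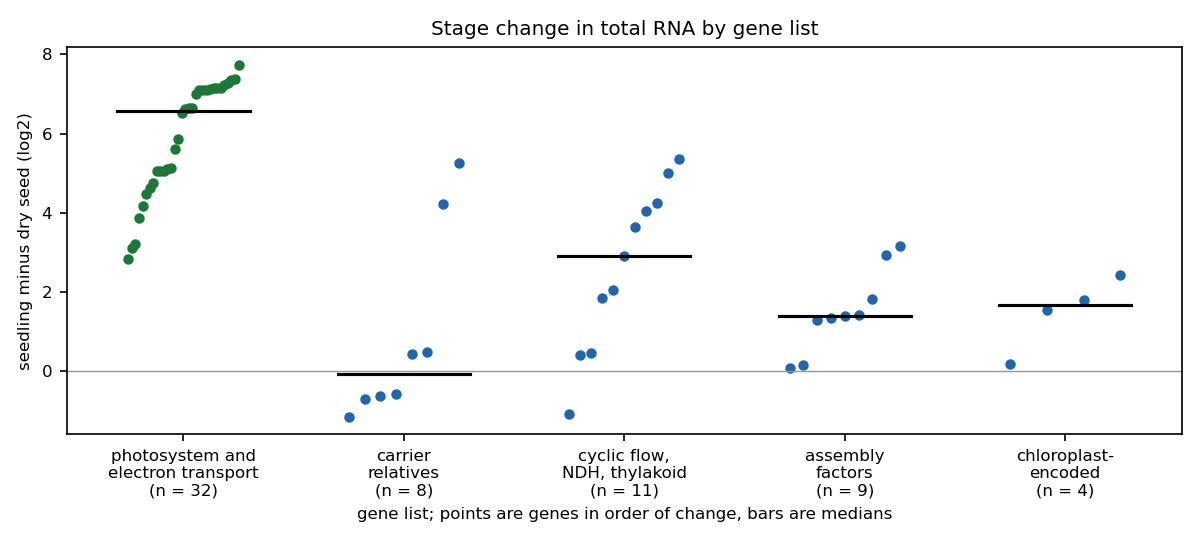
Seedling minus dry seed difference (log2) in total RNA for the 32 genes and for 4 lists of related genes, each point a gene in order of its value and each bar the median of its list. The 32 genes have a median of 6.57 and none lies below 2.83, whereas 5 genes of the nuclear lists were called lower.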

How the data were processed

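Total, monosomal and polysomal RNA of dry seeds and 72 h seedlings was hybridised to 18 arrays, 3 per group, after cRNA synthesis with the one-cycle 3' kit, per the labels' protocols. The deposited values are log2 intensities that the authors obtained by RMA, per the submitters' processing notes. The sources used here did not give the version, the platform or how probes were grouped into loci. The table had 27827 rows and no detection calls, and all rows were tested. Samples were grouped by their labels.

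All 18 arrays entered one linear model with a mean for each of 6 groups in limma 3.58.1 under R 4.3.3, with 12 residual degrees of freedom and 12 comparisons. P-values were adjusted by Benjamini-Hochberg over all rows of a comparison, and a gene was called under 0.05. The model was tested on simulated data. The labels describe a randomized block layout but tie no replicate number to a block, and the main fit has no block. The members and gene lists were chosen with earlier results of these data known. Genes named were, in each stage comparison, the 5 largest and 4 smallest changes, in each other comparison up to 5 called genes a direction, both genes of each pair and, of each related list, up to 3 called genes with the largest change and those not called or lower in seedlings. PSAE1 and FD2, called in dry seed polysomal against monosomal RNA beyond that number, and the other members' changes in total RNA were added so that every member is accounted for. Locus names were checked against RefSeq TAIR10.1, which was used for names alone. The closing section gives the effect of other scalings, a filter on low rows, another variance prior, a replicate block, smaller fits, a stricter threshold and leaving out arrays. Leaving out both seedling arrays high in seed markers was chosen after seeing the data.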

Additional observations from a re-analysis of the deposited data

Results flagged for a closer look

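For 13 contrasts between fractions the difference changed between stages by limma's test of that change (seedling minus dry seed, log2). For polysomal against monosomal RNA 5.69% of all rows were called higher in this change and 4.8% lower. These shares were 4.04% and 4.96% for polysomal against total RNA, and 9.27% and 9.85% for monosomal against total RNA. Polysomal against monosomal RNA changed in PSBR by 1.32 (adjusted p = 0.00607), PSBW by 1.17 (0.00243), PSAD2 by 1.14 (0.0168), ATPD by 1.41 (0.00287) and FNR2 by 1.38 (0.0235). Polysomal against total RNA changed in PSBO2 by 1.67 (0.0119), PETC by 1.32 (0.0209), PSBTN by 1.30 (0.0171) and PSBW by 1.07 (0.00493). Monosomal against total RNA changed in PSAD2 by -1.23 (0.00726), ATPD by -0.95 (0.0197), PSBTN by 1.02 (0.0331) and PSAL by 0.92 (0.0252). Of these genes PSBR, PSBW, PSAD2 and PETC were above the array median on every dry seed array. ATPD, FNR2, PSBO2, PSBTN and PSAL were not, so their sizes depend on the background in dry seed. In some fits without 1 array PSAD2 and FNR2 lost their call for polysomal against monosomal RNA. PETC lost its call in such fits for polysomal against total RNA, and ATPD, PSBTN and PSAL for monosomal against total RNA.

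In 5 of the 32 genes, and in 2.39% of all rows, every polysomal value lay below every monosomal value in dry seed and above it in seedlings. One of them was ATPD, given above. In the other four the change between stages did not pass limma's test and was 1.02 in PSBO2 (adjusted p = 0.103), 0.95 in PETC (0.0852), 0.53 in PSBP1 (0.139) and 0.51 in ATPG (0.227).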

How the results depend on the processing

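All 32 genes were called higher in seedlings in each fraction under every alternative run, and no direction of a named change turned. Counts for fractions moved, and this section gives them without the share of all rows called under the same setting. In dry seed, genes called higher on monosomes than in total RNA went from 1 to 2 under loess scaling, without the 25% of rows lowest in mean and with a trend and robust prior, to 0 with the groups of the comparison alone, and lay between 1 and 3 without 1 array. Genes lower on polysomes than in total RNA went from 4 to 8 with arrays centred on their 75th percentile, 2 with the groups alone and 1 at an adjusted p under 0.01, and lay between 1 and 4 without 1 array. Genes lower on polysomes than on monosomes went from 7 to 14 under loess, 17 with the 75th percentile and 3 at 0.01, and lay between 3 and 8 without 1 array.

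In seedlings, genes higher on monosomes than in total RNA went from 3 to 6 with arrays centred on the median or the 75th percentile, 5 with the trend and robust prior, and 1 at 0.01 or without both arrays high in seed markers, and lay between 1 and 2 without 1 array. Those higher on polysomes than in total RNA went from 2 to 1 at 0.01 and lay between 1 and 2 without 1 array. Polysomal against monosomal RNA gave 2 genes lower, in place of 0, under loess and the 75th percentile, and the median of the 32 genes turned from 0.01 to -0.05 with arrays centred on the median, -0.16 under loess and -0.20 with the 75th percentile.

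Between stages, the change from total RNA to monosomes gave 1 gene higher in place of 2 with the groups alone or without both arrays, 0 at 0.01 and 0 to 2 without 1 array, and 1 lower in place of 2 under loess, the 75th percentile, the groups alone and 0.01, and 1 to 3 without 1 array. The change from total RNA to polysomes gave 7 higher in place of 4 with the 75th percentile, 1 at 0.01 and 3 to 5 without 1 array. That from monosomes to polysomes gave 3 in place of 5 at 0.01 and 4 to 6 without 1 array. The causes were not tested. Centring on the median moved the median of all rows by -0.51, -0.36 and -0.44 in the total, monosomal and polysomal stage comparisons.

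With the replicate number as a block, 5 genes in place of 4 were lower on dry seed polysomes than in total RNA, PSBO1 being added, and no other count changed. Deviations of same-numbered arrays correlated with r between -0.06 and 0.08, none over 0.1 in 45 pairs, so the numbers were not treated as pairs. That 13 of 18 arrays correlated best with one of their own number is a hint from the data, not the design, that numbers may share something. Dry seed values of most of the 32 genes lay near the array medians and were taken as near background, which limits what they show.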
